A study of Mus musculus with 15 samples.

Results

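The let-7 passenger strands are the mature 3p arms of the mouse let-7 hairpins, and they were followed here in 15 small RNA libraries from mammary cell lines and from material shed by one of them. The 8 named passenger strands, let-7a-3p to let-7i-3p, are the members and come from 11 hairpins. They were taken by name and sequence, as all small RNA inserts of 18 to 26 bases whose first 18 bases matched the 3p side of the hairpin exactly. let-7a-1-3p and let-7c-2-3p have the same sequence and were counted together, so 10 separate sequences were counted, among 871 miRNA arms with reads. Of these 10, 6 had enough reads for the test across all arms; let-7a-2-3p, let-7c-1-3p, let-7f-1-3p and let-7g-3p did not and are given as values.

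The libraries form 5 groups of 3. TUBO exosomes are vesicles extracted from TUBO culture supernatant, TUBO supernatant is what remained of that fluid at the exosome isolation, and TUBO cells are a breast cancer line from primary tumours of Balb-NeuT mice, a strain with an activated rat Neu (Her2) transgene. MM3MG-Her2 is the MM3MG line transduced with retroviral particles of pLSXN-Neu, and MM3MG is the untransduced line, labelled as normal mammary epithelium of the BALB/c strain. All were grown in DMEM with 10% foetal calf serum and had no treatment, and each cell type is represented by 1 line. The series asked which miRNAs of Her2 cells and of their secreted particles act on the progesterone receptor. No label states that the replicates of a group were separate cultures. The spread against which every p-value below was set is thus that between libraries, which may be technical.

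A let-7 hairpin is cut from its transcript by Drosha and then opened by Dicer into a short duplex. One strand, in let-7 the 5p arm, is held by Argonaute as the guide that represses targets such as Lin28, Hmga2 and Ras mRNAs, while the 3p passenger strand is normally released and degraded. In human cells most let-7 precursors receive a single U at the 3′ end of the 3p arm before Dicer cuts them, whereas the precursors of let-7a-2, let-7c and let-7e are cut without this step.

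The arms on which the results turn are shown with bases 2 to 8, the positions of a miRNA seed, in capitals (RefSeq, GRCm38.p6, 5′ to 3′), together with the let-7d guide, whose level moved apart from that of its passenger.
let-7a-1-3p: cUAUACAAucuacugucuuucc
let-7b-3p: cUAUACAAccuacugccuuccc
let-7d-3p: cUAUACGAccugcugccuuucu
let-7e-3p: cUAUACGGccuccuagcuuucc
let-7f-2-3p: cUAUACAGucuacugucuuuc
let-7g-3p: aCUGUACAggccacugccuugc
let-7i-3p: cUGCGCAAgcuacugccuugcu
let-7d-5p: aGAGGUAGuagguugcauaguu

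For let-7g-3p the capitals follow the annotated start, but 90 of its 93 reads began 1 base later, which moves bases 2 to 8 to UGUACAG, the letters of let-7a-2-3p. The seed UAUACAA is common to let-7a-1-3p, let-7b-3p, let-7c-2-3p and let-7f-1-3p. let-7d-3p, let-7e-3p, let-7f-2-3p and let-7i-3p each have a seed of their own, in contrast to the guides, where let-7b-5p and let-7d-5p both carry GAGGUAG. Over 21 aligned bases let-7d-3p is identical to let-7b-3p at 18 and to let-7i-3p at 14, while let-7a-1-3p and let-7f-2-3p, the most alike of those shown, are identical at 20. The let-7d-3p arm lies at chr13:48536024-48536045 on the minus strand, in an exon of the lincRNA 6720427I07Rik, which also holds the let-7a-1 and let-7f-1 hairpins. let-7b-3p lies at chr15:85707379-85707400 on the plus strand, in an exon of Lncppara, as does let-7c-2. let-7f-2-3p lies at chrX:151912403-151912423 on the plus strand in an intron of Huwe1, let-7e-3p at chr17:17830411-17830432 on the plus strand in an intron of Spaca6, and let-7i-3p at chr10:122985642-122985663 on the minus strand in an exon of the transcribed pseudogene D630033A02Rik. The whole let-7d hairpin, chr13:48536012-48536114, is shown because its 2 arms changed places as the main product; capitals mark the 5p arm and then the 3p arm.
let-7d hairpin: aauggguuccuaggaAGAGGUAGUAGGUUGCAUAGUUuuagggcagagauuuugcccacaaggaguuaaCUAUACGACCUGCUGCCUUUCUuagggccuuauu

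Libraries held 196152 to 710902 reads. The supernatant libraries were the shallowest, with 59050 to 77080 miRNA reads, 28.2 to 33.2% of their reads, and 24.5 to 33.8% of their reads were 20 bases or shorter, against at most 18.3% in any other library. In all 5 groups replicates differed by more than counting noise (chi-square per degree of freedom 3.90 to 89.1), and exosome replicate 3, supernatant replicate 3 and MM3MG replicate 1 stood apart from the others of their group. The 7 epithelial marker miRNAs (miR-200 family, miR-203, miR-205) summed to 21355, 11860 and 26163 CPM (counts scaled to 1000000 miRNA reads per library) in TUBO exosomes, supernatant and cells, but only 24.2 CPM in MM3MG-Her2 and 37.3 CPM in MM3MG, which goes against the epithelial label of that line. The 5 mesenchymal markers summed to 42952, 25491 and 47783 CPM in TUBO exosomes, supernatant and cells, nearly all of it miR-143-3p (42464, 25032 and 47496 CPM), and to 106117 CPM in MM3MG-Her2 and 185727 CPM in MM3MG, so this list exceeded the epithelial one in all 5 groups.

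Taken as a sum, the let-7 passenger strands were scarce in cells and exosomes and abundant in the supernatant, mainly through let-7d-3p. Their summed level was 850.1 ± 141 CPM in TUBO exosomes (SD, n = 3 here and below), 10075 ± 1229 in TUBO supernatant, 1155 ± 115 in TUBO cells, 1106 ± 90.2 in MM3MG-Her2 and 935 ± 206 in MM3MG. The 3 supernatant libraries, at 11167, 10313 and 8744 CPM, stood above every other library, whose sums ran between 697 CPM in an MM3MG library and 1287 CPM in a TUBO cell library. The guides, by contrast, summed to 173522 CPM in exosomes, 169574 in supernatant and 131436 in TUBO cells. A CPM is a share of the miRNA reads, and in bulk RNA fewer cells and less RNA per cell cannot be told apart. As CPM over all reads in place of miRNA reads the same sums were 503, 3093, 882, 577 and 723, still highest in the supernatant.

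let-7d-3p made up most of the supernatant sum. It gave 81.0% of let-7 passenger reads in the supernatant (1724 of 2129), against 27.9% in exosomes and 15.1% in TUBO cells. Outside the supernatant the sequence of let-7a-1-3p and let-7c-2-3p led in every group, with 51.6% in exosomes, 51.0% in TUBO cells, 48.9% in MM3MG-Her2 and 46.3% in MM3MG.

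**Figure D1:**
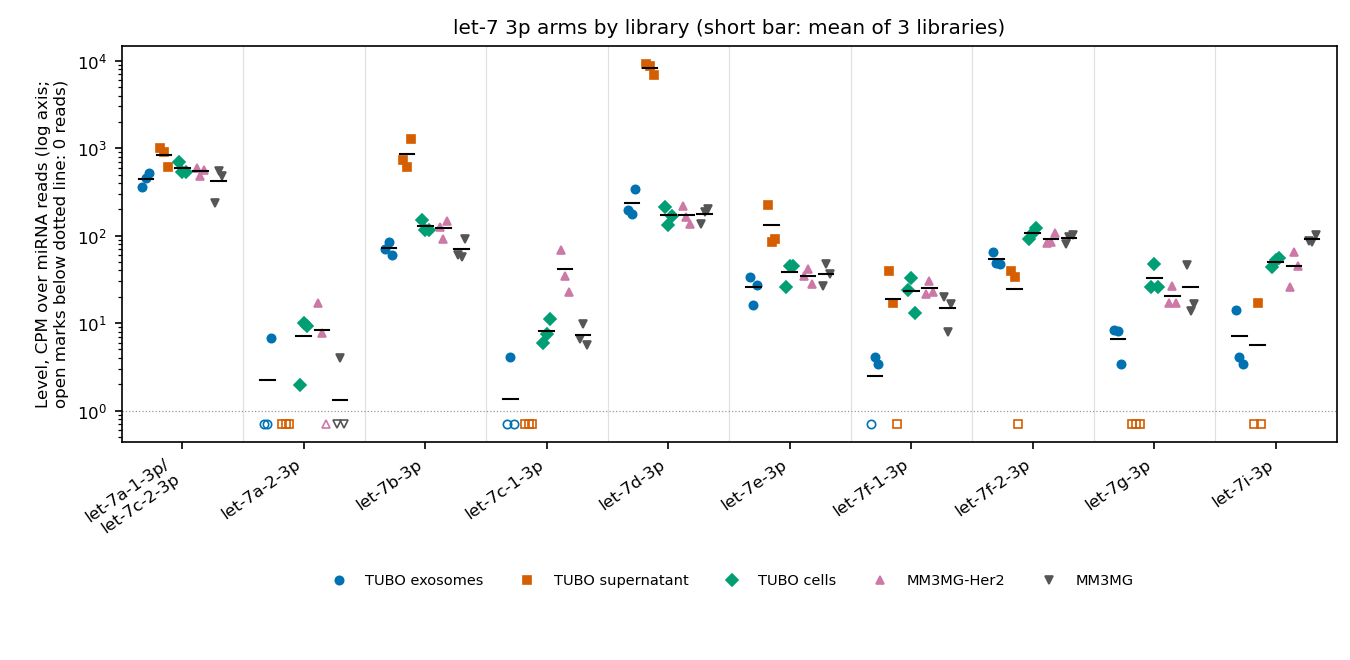
Level of each let-7 3p arm in each library, in CPM of miRNA reads on a log axis; short bars are means of 3 libraries and open marks are libraries with 0 reads. let-7d-3p sits at 6785 to 9121 CPM in the supernatant and at 338 CPM or less in all other libraries.

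In TUBO supernatant set against TUBO cells, 4 of the 6 tested members were higher and 2 lower (edgeR quasi-likelihood test, adjusted p under 0.05), where 35.7% of all 238 arms were higher and 37.8% lower, 73.5% in all. The median log2 change of the 6 was 1.44, beside -0.08 over all arms tested. let-7d-3p, let-7b-3p, let-7e-3p and the let-7a-1-3p/let-7c-2-3p sequence were higher, and let-7f-2-3p and let-7i-3p lower.

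let-7d-3p had 9121, 8637 and 6785 CPM in the supernatant libraries (691, 510 and 523 reads), against 215, 132 and 169 CPM in TUBO cells (108, 53 and 91 reads). The groups were far apart, and its log2 change of 5.83 ± 0.31 (SE; edgeR adjusted p = 1.77e-11) ranked 10 by size and 2 by p among the 238 arms. Without supernatant replicate 3 it was 5.73. Exosome libraries had 195, 175 and 338 CPM, which overlap the cells, and the change from cells missed the threshold at a log2 of 0.68 ± 0.27 (edgeR adjusted p = 0.0551). That value was 0.36 without exosome replicate 3, 0.30 without TUBO cell replicate 2 and 0.84 without exosome replicate 2 (edgeR adjusted p = 0.0412). At 0.64 to 0.70 it also passed with the replicate block (edgeR adjusted p = 0.0327), upper-quartile scaling (0.0433), at most 2 differences after base 18 (0.0458) and all 15 libraries in 1 fit (0.0436), so the call depends on the setting.

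let-7b-3p had 739, 609.7 and 1258 CPM in supernatant, against 153, 115 and 117 CPM in TUBO cells. All 3 supernatant libraries lay above all cell libraries, with a log2 change of 3.05 ± 0.33 (edgeR adjusted p = 1.60e-07), or 2.44 without supernatant replicate 3. In exosomes it had 70.5, 85.3 and 60.8 CPM, below every cell library, yet the log2 change of -0.60 ± 0.35 did not pass (edgeR adjusted p = 0.181), except with no filter on low counts (-0.92, edgeR adjusted p = 0.0208).

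let-7e-3p had 224, 84.7 and 90.8 CPM in supernatant, against 25.9, 44.8 and 44.5 CPM in TUBO cells, on 29 and 55 reads in all. The groups did not overlap, and the log2 change was 2.10 ± 0.47 (edgeR adjusted p = 0.000676). It was smaller but still called without supernatant replicate 1 (edgeR adjusted p = 0.0253). The most abundant passenger of the cells, let-7a-1-3p/let-7c-2-3p, had 1003, 914 and 609.8 CPM in supernatant, against 699, 528 and 536 CPM in TUBO cells. Here the groups overlapped, and the log2 change of 0.78 ± 0.25 (edgeR adjusted p = 0.00947) was 0.48 with RLE scaling (edgeR adjusted p = 0.0657), 0.23 with no filter on low counts (0.722), 0.52 without TUBO cell replicate 2 (0.115) and 0.70 without TUBO cell replicate 3 (0.0538). DESeq2 gave 0.49 (adjusted p = 0.0572).

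let-7f-2-3p was lower in supernatant, with 39.6, 33.9 and 0 CPM (5 reads in all), against 91.6, 107 and 121 CPM in TUBO cells (log2 -1.88 ± 0.60, edgeR adjusted p = 0.0100; -2.52 without supernatant replicate 1). let-7i-3p had 1 read in the 3 supernatant libraries, against 73 reads in TUBO cells. As a ratio of pooled CPM this is 0.0932 (95% counting interval 0.00233 to 0.536). Such intervals cover counting error only, since PCR reads are not independent molecules. The edgeR call rests on supernatant replicate 1, without which the adjusted p was 0.0652. let-7g-3p had 0 reads in supernatant and 46 in TUBO cells, at least 2.25-fold lower against the 3-read floor of the group, 14.2 CPM. At that depth let-7a-2-3p and let-7c-1-3p, with 0 supernatant reads and 7.08 and 8.20 CPM in cells, could not be compared.

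Setting each passenger against the guide of its hairpin group removes the scaling between libraries. The let-7a/let-7c and let-7f groups pool several hairpins, whose mix was not separated in these ratios. In TUBO cells the 3p arm was the minor product of all 7 hairpin groups, from 2.05 ± 0.226 3p reads per 1000 5p reads for let-7i to 80.0 ± 17.8 for let-7d. The let-7d ratio was also the highest of the 7 in exosomes, supernatant, MM3MG-Her2 and MM3MG.

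In the supernatant the let-7d arms changed places. There were 21594, 20400 and 21792 3p reads per 1000 5p reads in supernatant, against 97.4, 61.8 and 80.8 in TUBO cells. The 3p arm made up 95.5% of let-7d reads in supernatant (exact 95% interval 94.5 to 96.4) and 7.53% in TUBO cells (6.66 to 8.48). With 81 guide reads in the supernatant, the ratio seen in cells would have given 6.60 passenger reads, where 1724 were counted. The log2 change of the ratio was 8.06 ± 0.34 (edgeR arm by group interaction, adjusted p = 6.19e-64), the first by p and the fourth by size of 119 hairpins with both arms counted. Both arms contributed, since let-7d-5p fell to 422, 423 and 311 CPM in supernatant, against 2209, 2138 and 2090 CPM in TUBO cells (log2 -2.21 ± 0.24, edgeR adjusted p = 2.09e-07).

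**Figure D2:**
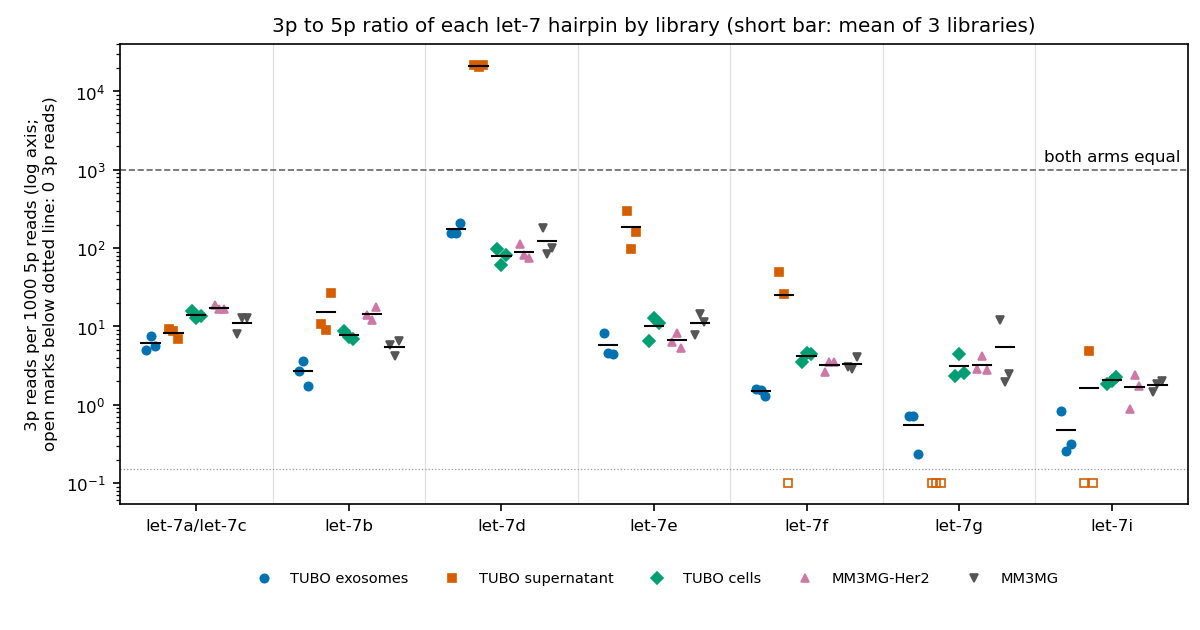
3p reads per 1000 5p reads of each let-7 hairpin group in each library, on a log axis; short bars are means of 3 libraries, open marks are libraries with 0 3p reads, and the dashed line marks equal arms. Only the 3 supernatant points of let-7d, at 20400 to 21792, lie above that line.

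Of the 7 let-7 ratios, 5 differed between supernatant and TUBO cells, 4 higher and 1 lower, where 42.0% of the 119 hairpins differed, 30.3% higher and 11.8% lower. let-7e had 298, 98.0 and 163 3p reads per 1000 5p reads in supernatant, against 6.52, 12.7 and 11.2 in TUBO cells (log2 4.23 ± 0.50, edgeR adjusted p = 4.02e-14), and again its guide was lower (log2 level -2.14 ± 0.25, edgeR adjusted p = 3.98e-07). let-7f had 50, 25.9 and 0 in supernatant, against 3.50, 4.55 and 4.50 in TUBO cells (log2 2.73 ± 0.71, edgeR adjusted p = 0.000589), on 9 passenger reads. Without supernatant replicate 1 the let-7f call was lost (log2 1.84, edgeR adjusted p = 0.187). The let-7f guide and let-7f-2-3p were both lower in level in supernatant, the guide by more (log2 -4.07 ± 0.23 and -1.88 ± 0.60).

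The let-7b ratio was higher in supernatant (log2 0.88 ± 0.33, edgeR adjusted p = 0.0249) and the let-7a/let-7c ratio lower (log2 -0.77 ± 0.31, edgeR adjusted p = 0.0362). Neither passed with limma on log2 ratios (adjusted p = 0.198 for let-7b and 0.112 for let-7a/let-7c) or without any 1 of the TUBO cell libraries (edgeR adjusted p at least 0.0708 and 0.0782). Without supernatant replicate 3 the let-7b log2 change was 0.36. let-7g and let-7i had 0 and 1 passenger reads, where the cell ratio would have given 1.14 and 1.42, so no change was detectable. Of 95 hairpins with 10 reads or more in both groups, 10 had the 3p arm as the major one in supernatant and the 5p arm in TUBO cells: let-7d, miR-139, miR-3068, miR-322, miR-324, miR-330, miR-345, miR-34b, miR-361 and miR-450. In 4 hairpins the exchange ran the other way.

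**Figure D3:**
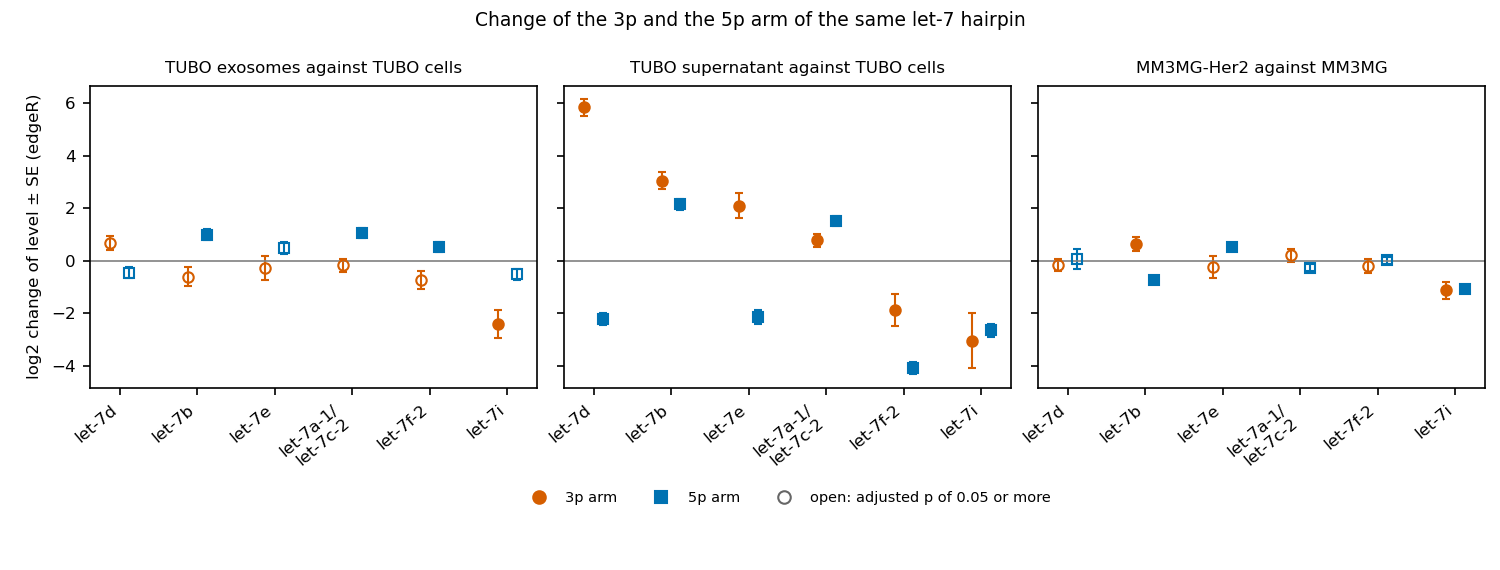
Log2 change of level, with its SE, of the 3p arm and the 5p arm of 6 let-7 hairpin groups in 3 comparisons; filled marks have an edgeR adjusted p under 0.05. In supernatant against TUBO cells the let-7d arms lie at 5.83 and -2.21 and the let-7e arms at 2.10 and -2.14, on opposite sides of 0.

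The guides set the frame for these ratios. In supernatant against TUBO cells, 2 of the 7 guides were higher, let-7a/let-7c (log2 1.51 ± 0.20, edgeR adjusted p = 1.88e-06) and let-7b (2.15 ± 0.21, 7.04e-08), and 5 were lower, from -2.14 for let-7e to -4.07 for let-7f. Of all 238 arms, 73.5% were called in this comparison, 35.7% higher and 37.8% lower. Base 19 separates let-7a-5p from let-7c-5p, and let-7c took 98.4% of these reads in supernatant, 76.7% in exosomes and 74.4% in TUBO cells. It took 57.8% in MM3MG-Her2 and 66.5% in MM3MG, so the mix behind the let-7a/let-7c ratio differed between groups.

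Exosomes differed from the supernatant around them. In TUBO exosomes against TUBO cells 1 of the 6 tested members, let-7i-3p, was called lower, and none higher, where 37.8% of all arms were called, 23.5% higher and 14.3% lower. These were 56 higher and 34 lower arms with a median log2 change over all arms of 0.07; RLE scaling gave 46 higher and 61 lower arms with a median of -0.18. let-7i-3p had 14.1, 4.06 and 3.38 CPM in exosomes, against 43.8, 52.3 and 55.7 CPM in TUBO cells, with no overlap (log2 -2.40 ± 0.54, edgeR adjusted p = 0.00167). Exosome replicate 1 held 5 of its 7 exosome reads, and the log2 change was -3.48 without that library and -2.04 without exosome replicate 3. let-7f-2-3p had 64.8, 48.7 and 47.3 CPM in exosomes, against 91.6, 107 and 121 CPM in TUBO cells. Its groups did not overlap either, but its log2 change of -0.73 ± 0.34 missed the threshold (edgeR adjusted p = 0.101) and passed it at -0.97 with RLE scaling (edgeR adjusted p = 0.0229) or DESeq2 (adjusted p = 0.0115), at -1.04 with no filter on low counts (0.0235) and at -0.76 with all 15 libraries in 1 fit (0.0441).

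Of the ratios, 6 of 7 differed between exosomes and TUBO cells, where 31.1% of the 119 hairpins did, 16.0% higher and 15.1% lower. The let-7d ratio was higher and 5 were lower. let-7d had 156, 155 and 208 3p reads per 1000 5p reads in exosomes, against 97.4, 61.8 and 80.8 in TUBO cells, with no overlap (log2 1.12 ± 0.31, edgeR adjusted p = 0.00188; 0.96 without exosome replicate 3). let-7a/let-7c fell to 5.05, 7.47 and 5.70 in exosomes, against 15.9, 13.0 and 13.6 in TUBO cells (log2 -1.24 ± 0.30, edgeR adjusted p = 0.000491). let-7b (log2 -1.57), let-7f (-1.48), let-7g (-2.42) and let-7i (-1.89) were lower too, with edgeR adjusted p between 0.000351 for let-7b and 0.00493 for let-7i, whose change was -2.70 without exosome replicate 1. limma on log2 ratios called 2 of these 6 and missed let-7b and let-7d (adjusted p = 0.0667 each), let-7f (0.201) and let-7i (0.0504). The guides moved the other way for 3 hairpin groups: let-7a/let-7c (log2 level 1.05), let-7b (0.99) and let-7f (0.52) passed as higher in exosomes, where 23.5% of all 238 arms did.

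In TUBO exosomes against TUBO supernatant, which share the libraries of the comparisons above, 4 of 6 members were lower in exosomes and none higher, where 65.5% of all arms differed, 27.3% lower and 38.2% higher. The log2 changes were -5.15 ± 0.30 for let-7d-3p, -3.65 ± 0.35 for let-7b-3p, -2.38 ± 0.51 for let-7e-3p and -0.96 ± 0.25 for let-7a-1-3p/let-7c-2-3p, with edgeR adjusted p between 6.66e-11 and 0.00277, and the let-7b-3p value was -3.04 without supernatant replicate 3. Of the ratios, 4 of 7 were lower in exosomes, where 36.1% of hairpins differed and 25.2% were lower: let-7b, let-7d, let-7e and let-7f (log2 -2.45, -6.94, -4.99 and -4.21, edgeR adjusted p at most 1.26e-06). Without supernatant replicate 1 the let-7f value was -3.31 (edgeR adjusted p = 0.0235). Of the guides of these 4 groups, let-7d-5p, let-7e-5p and let-7f-5p were higher in exosomes (log2 level 1.76, 2.63 and 4.59) and let-7b-5p was lower (log2 level -1.15).

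Markers of blood and serum summed to more in the cell-free groups than in TUBO cells. The 7 miRNAs of that list summed to 10498, 11618 and 25253 CPM in exosomes and 3208, 2930 and 7109 CPM in supernatant, against 151, 125 and 147 CPM in TUBO cells, and 0, 4 and 5 of the 7 had no read in these groups. miR-486-5p, counted together with miR-3107-5p, made up 14364 of a mean 15790 CPM in exosomes and 4401 of 4416 CPM in supernatant, and nearly all of the list in MM3MG-Her2 (722 CPM) and MM3MG (1129 CPM), both above the 141 CPM of TUBO cells. miR-451a, made in red blood cells, had 988 CPM in exosomes, 8.80 in supernatant and 0 in TUBO cells. The medium held 10% foetal calf serum, and a calf miRNA with the same first 18 bases is counted as mouse; its part in these levels was not tested. The list sum was higher in exosomes than in supernatant. The source of let-7d-3p in exosomes and supernatant was not tested.

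Among the 3 cell lines few let-7 passengers passed the test. In MM3MG-Her2 against MM3MG, 1 of 6 tested members was higher and 1 lower, where 60.5% of all 276 arms differed, 27.5% higher and 33.0% lower. Without MM3MG replicate 1, which stood apart, 5 members were called, let-7a-1-3p/let-7c-2-3p (log2 -0.52), let-7d-3p (-0.73), let-7f-2-3p (-0.74), let-7i-3p (-1.59) and let-7c-1-3p (1.79), which then passed the filter, but the median of all arms then lay at -0.52, against -0.04 with all 6 libraries. let-7i-3p had 25.8, 65.1 and 45.4 CPM in MM3MG-Her2, against 85.9, 85.1 and 103 CPM in MM3MG, without overlap (log2 -1.13 ± 0.32, edgeR adjusted p = 0.00226). The call held in all 15 alternatives, with log2 changes from -1.94 without MM3MG-Her2 replicate 2 to -0.84 without MM3MG-Her2 replicate 1. Its guide changed by about as much (log2 -1.06 ± 0.13, edgeR adjusted p = 9.45e-10), and the let-7i ratio showed no detectable change (log2 -0.09 ± 0.29, edgeR adjusted p = 0.970).

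In the main test let-7b went in opposite directions on its 2 arms, but the call on the 3p arm was not stable. let-7b-3p had 125, 91.9 and 147 CPM in MM3MG-Her2, against 59.5, 57.4 and 91.8 CPM in MM3MG, groups that just failed to meet (log2 0.64 ± 0.28, edgeR adjusted p = 0.0429). This call was lost without any 1 of the 6 libraries, the log2 change being 0.12 without MM3MG replicate 1 and 0.09 without MM3MG replicate 2 or without MM3MG-Her2 replicate 3. It was also lost with RLE scaling (edgeR adjusted p = 0.0650) and DESeq2 (adjusted p = 0.103). With no filter on low counts or all 15 libraries in 1 fit the log2 change was 0.26 (edgeR adjusted p = 0.568 and 0.571). Relative to the median of all arms let-7b-3p was 0.68 higher, and 0.48 to 0.93 higher over 15 alternatives. let-7b-5p fell to 8768, 7676 and 8327 CPM in MM3MG-Her2, against 10246, 13574 and 13933 CPM in MM3MG (log2 -0.75 ± 0.14, edgeR adjusted p = 4.97e-06).

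The let-7b ratio, which needs no scaling, was 14.2, 12.0 and 17.7 3p reads per 1000 5p reads in MM3MG-Her2, against 5.80, 4.23 and 6.59 in MM3MG. All 3 MM3MG-Her2 libraries were higher (log2 1.41 ± 0.28, edgeR adjusted p = 0.000132), and the change was 1.45 without MM3MG replicate 1. The let-7a/let-7c ratio was also higher, at 19, 16.5 and 16.6 in MM3MG-Her2, against 8.12, 12.8 and 12.7 in MM3MG (log2 0.63 ± 0.19, edgeR adjusted p = 0.0113). It did not pass with limma (adjusted p = 0.132) or without MM3MG-Her2 replicate 1 (edgeR adjusted p = 0.0722). These were 2 of 7 ratios, where 17.2% of 151 hairpins differed, 9.27% higher and 7.95% lower. let-7c-1-3p, too scarce for the test, had 68.9, 34.5 and 22.7 CPM in MM3MG-Her2 on 29 reads, against 6.61, 9.89 and 5.57 CPM in MM3MG on 9 reads, a pooled ratio of 5.62 (95% counting interval 2.59 to 13.5). The groups did not overlap, and with no filter on low counts its log2 change was 1.92 (edgeR adjusted p = 0.00506).

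In TUBO cells against MM3MG, which share the MM3MG libraries with the comparison above, let-7b-3p and let-7i-3p were again the members called, where 81.2% of arms differed, 34.1% higher and 47.1% lower. let-7i-3p had 43.8, 52.3 and 55.7 CPM in TUBO cells, against 85.9, 85.1 and 103 CPM in MM3MG (log2 -1.09 ± 0.27, edgeR adjusted p = 0.000360). let-7b-3p had 153, 115 and 117 CPM in TUBO cells, against 59.5, 57.4 and 91.8 CPM in MM3MG (log2 0.64 ± 0.25, edgeR adjusted p = 0.0158), a call lost without TUBO cell replicate 1 (0.52, edgeR adjusted p = 0.0720), without MM3MG replicate 2 (0.54, edgeR adjusted p = 0.0808) and with reads from the annotated start only (0.41, edgeR adjusted p = 0.124). None of the 7 ratios passed, where 16.6% of hairpins did, 8.61% higher and 7.95% lower. By edgeR 0 of the 7 had an unadjusted p under 0.05, the smallest being 0.0560 for let-7b, and limma also called 0.

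In TUBO cells against MM3MG-Her2 none of the 6 members passed, where 76.4% of arms did, 28.6% higher and 47.8% lower. By edgeR 0 of the 6 had an unadjusted p under 0.05, the smallest being 0.569 for let-7d-3p, and DESeq2 called 0 as well. Without MM3MG-Her2 replicate 3, let-7b-3p (log2 0.62, edgeR adjusted p = 0.0460) and let-7f-2-3p (log2 0.72, edgeR adjusted p = 0.0212) were called higher in TUBO cells. let-7c-1-3p, at 5.98, 7.47 and 11.1 CPM in TUBO cells, against 68.9, 34.5 and 22.7 CPM in MM3MG-Her2, was lower with no filter (log2 -2.01, edgeR adjusted p = 0.000899). The let-7b ratio was lower in TUBO cells, at 8.75, 7.32 and 6.97 3p reads per 1000 5p reads, against 14.2, 12.0 and 17.7 in MM3MG-Her2 (log2 -0.91 ± 0.26, edgeR adjusted p = 0.0210). It was the only one of 7, where 5.96% of hairpins differed, 3.97% higher and 1.99% lower, and it missed the threshold with limma (adjusted p = 0.0512) and without any 1 of 5 of the 6 libraries. let-7d-3p held nearly the same level in all 3 lines, at 172 ± 41.6 CPM in TUBO cells, 173 ± 42.5 in MM3MG-Her2 and 175 ± 35.2 in MM3MG, with no call in the 3 comparisons. It was called lower against MM3MG when MM3MG replicate 1 was left out, in MM3MG-Her2 (log2 -0.73) and in TUBO cells (-0.40), and in TUBO cells also when only reads from the annotated start were counted (log2 -0.47, edgeR adjusted p = 0.0317).

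The remaining levels spanned a wide range. let-7a-1-3p/let-7c-2-3p had 358, 451 and 520.3 CPM in exosomes, 594, 482 and 556 CPM in MM3MG-Her2 and 238, 542 and 481 CPM in MM3MG, so that its lowest library was MM3MG replicate 1. let-7e-3p had 25.7 ± 8.87 CPM in exosomes, 38.4 ± 10.9 in TUBO cells, 35 ± 6.89 in MM3MG-Her2 and 36.7 ± 10.5 in MM3MG, groups that overlapped. The scarcest members had too few reads in the cell-free groups for the main test: let-7a-2-3p had 2 reads in exosomes and 0 in supernatant, let-7c-1-3p 1 and 0, let-7f-1-3p 2 and 4, and let-7g-3p 6 and 0. In TUBO cells these had 10, 12, 32 and 46 reads. With no filter on low counts let-7f-1-3p (log2 -3.17, edgeR adjusted p = 0.00251) and let-7g-3p (log2 -2.27, edgeR adjusted p = 0.00394) were called lower in exosomes than in TUBO cells.

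The 3′ ends of the reads set members apart in a further way. A U that the hairpin does not hold closed 91.8% of let-7f-2-3p reads (347 of 378), 73.9% of let-7b-3p reads (442 of 598) and 43.6% of let-7a-1-3p/let-7c-2-3p reads (1004 of 2302). Among 130 3p arms with 100 reads or more, the median share was 7.79% and 9 arms reached 40%; let-7f-2-3p ranked 1, let-7b-3p 2 and let-7a-1-3p/let-7c-2-3p 7. On fewer reads, let-7g-3p had 62.4% and let-7f-1-3p 60.6%. The shares were lower for let-7e-3p (16.4%), let-7c-1-3p (9.80%) and let-7a-2-3p (0 of 20 reads). let-7d-3p and let-7i-3p had 0.119% and 2.29%, and both arms end in a U that the hairpin holds, from which an added U cannot be told apart. Both are among the 130 arms, from which arms with such a hairpin U were not left out. The median and the ranks thus include arms in which an added U cannot be seen. The guides had 0.00701 to 7.85%. The let-7d hairpin shown above holds a U directly after its guide (0.0518%), so an added U cannot be told apart there either. The bases after the other guides were not examined, so the guide shares are not a measure of added U comparable to those of the passengers.

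The leading reads show this end, with the added base in capitals; sequences are as deposited, in DNA letters, and let-7d-3p is shown for comparison.
let-7f-2-3p: ctatacagtctactgtctttcT
let-7b-3p: ctatacaacctactgccttccT
let-7a-1-3p: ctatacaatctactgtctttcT
let-7d-3p: ctatacgacctgctgcctttct

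The first of these made up 89.4% of let-7f-2-3p reads, the second 70.4% of let-7b-3p reads and the third 42.6% of let-7a-1-3p/let-7c-2-3p reads. The let-7d-3p read shown was 79.8% of that arm's reads over all libraries, and 83.5% in supernatant, where 20 different sequences of it were read, against 69.8% in TUBO cells. For 7 of the 10 sequences 92.7 to 98.6% of reads began at the annotated base. The share was 88.2% for let-7c-1-3p and 14 of 20 reads for let-7a-2-3p, and let-7g-3p had the shifted start given above.

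**Figure D4:**
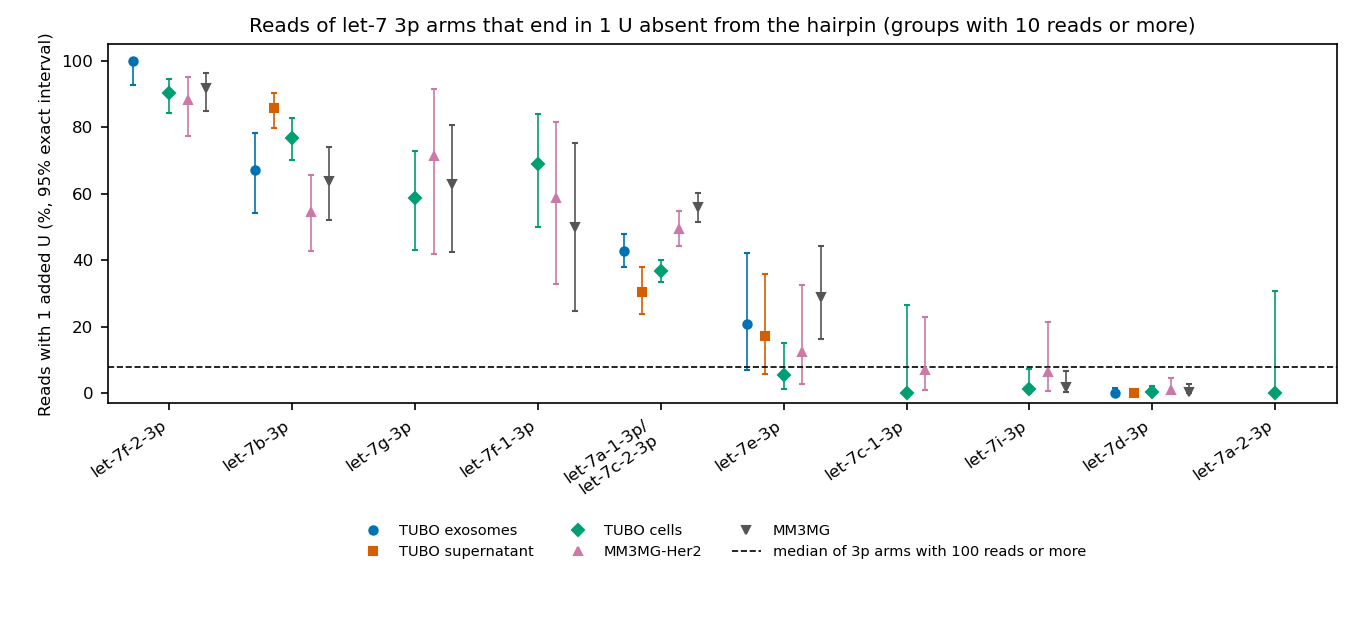
Share of reads of each let-7 3p arm that end in 1 U absent from the hairpin, by group, with exact 95% intervals on pooled reads. Groups with 10 reads or more are shown. The dashed line is the median of 130 3p arms, including arms in which a hairpin U hides an added U. let-7f-2-3p lies at 88.3% or more in every group shown, and let-7d-3p under 1% in all 5.

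The share with an added U is given by library for 2 members, and no test was run on it. For let-7b-3p it closed 82.1, 75 and 91.8% of reads in the supernatant libraries and 79.2, 80.4 and 71.4% in TUBO cells, which overlap. The MM3MG-Her2 libraries, at 55.2, 58.3 and 50%, lay below those of MM3MG, at 66.7, 62.1 and 63.6%, and below those of TUBO cells. For let-7a-1-3p/let-7c-2-3p the order was supernatant (30.3, 33.3 and 27.7%), TUBO cells (37.9, 35.4 and 36.3%), MM3MG-Her2 (53.6, 46.0 and 48.0%) and MM3MG (59.7, 55.8 and 54.3%), 4 groups without overlap, while exosomes (52.8, 37.8 and 38.3%) overlapped both TUBO cells and MM3MG-Her2.

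The miRNAs whose level followed a passenger most closely over the 15 libraries were picked by Pearson's r on log2 CPM among 336 arms. They describe libraries in which the supernatant stands apart, and share depth and composition with the member. For let-7d-3p they were miR-320-3p (r = 0.982), miR-423-5p (0.949) and miR-151-3p (0.932), which had 12823, 10544 and 17783 CPM in supernatant, against 1215, 786 and 3314 CPM in TUBO cells. For let-7b-3p they were miR-423-5p (0.936), miR-99b-5p (0.920) and let-7d-3p (0.910). For let-7a-1-3p/let-7c-2-3p they were miR-744-5p (0.884), miR-219a-1-3p (0.836) and miR-15b-5p (0.834).

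Neighbours on the same transcripts and passenger strands of other miRNAs are given for comparison. Of 7 arms from clusters with let-7 hairpins, 5 were higher and 1 lower in supernatant against TUBO cells (median log2 0.96). miR-98, a let-7 relative from the Huwe1 intron, had its 3p arm higher (log2 1.91 ± 0.61, edgeR adjusted p = 0.0100) and its 5p arm lower (log2 -3.21 ± 0.33, edgeR adjusted p = 1.13e-07), on 12 and 18 supernatant reads. Of 24 passenger arms of other miRNAs, 18 were tested, with 3 higher and 9 lower in supernatant (median log2 -1.15), beside 35.7% higher and 37.8% lower over all arms. In MM3MG-Her2 against MM3MG, 20 were tested, with 13 higher and 1 lower, beside 27.5% higher and 33.0% lower over all arms. Their median log2 change was 0.84, beside -0.18 for the 6 let-7 passengers and -0.04 for all arms.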

How the data were processed

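The deposited files give, for each of 15 libraries, the small RNA insert sequences and their read counts. Per the labels' protocols, RNA was extracted with TRIzol, ligated to a 3′ adapter with truncated T4 RNA ligase 2 and then to a 5′ adapter, reverse transcribed, amplified by PCR and size-selected on a gel. Molecular identifiers are not mentioned, and how the authors made the counts is otherwise not given in the labels. The depth was 196152 to 710902 reads per library.

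Inserts of 18 to 26 bases were matched by their first 18 bases to 1174 whole mouse hairpins on GRCm38. Each was counted for the arm on the matched side of the hairpin, with sides placed by RNAfold 2.7.2. Reads of a side that began outside the annotated arm were thus counted too. Annotated arms were from RefSeq (GRCm38.p6) and host genes from GENCODE on GRCm38. Arms that shared 50% or more of the reads of either arm were merged, and reads of several features (0.822%) went to the one with most reads of its own. CPM were computed over miRNA reads. edgeR 4.0.16 (quasi-likelihood, TMM, filterByExpr) was fitted to the 9 cell-line libraries (276 arms) and the 9 TUBO-derived libraries (238 arms), with Benjamini-Hochberg adjustment over all arms and a threshold of 0.05. Ratios were tested as an arm by group interaction with a library block, for hairpins with 10 reads or more on both arms. limma 3.58.1 on log2 ratios (pseudocount 0.5), DESeq2 1.42.0, other scalings and filters, and leaving out each library were alternatives. R 4.3.3, Python 3.11.15, scipy 1.17.1 and matplotlib 3.10.9 were used. The tests were also run on simulated counts with the same dispersion for every arm and library, unlike the unequal replicate spread of these data.

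The text names all let-7 3p members and guides, 7 cluster partners, 24 other passenger arms and, for the 3 most abundant members, the 3 arms of 10 CPM or more with the highest Pearson r. Members and lists were chosen with earlier results of these data known.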

Additional observations from a re-analysis of the deposited data

How the results depend on the processing

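The number of let-7 3p arms called depended most on the processing in TUBO exosomes against TUBO cells, where 1 was called: it was 2 with RLE scaling, upper-quartile scaling, DESeq2, the replicate block or at most 2 differences after base 18, 3 with all 15 libraries in 1 fit, 5 with no filter on low counts, and 1 to 3 when single libraries were left out. In MM3MG-Her2 against MM3MG, with 2 called, it was 1 with RLE scaling, DESeq2 or all 15 libraries, and 1 to 5 without single libraries. It was 1 to 3 without single libraries in TUBO cells against MM3MG (2 called), 5 to 6 in supernatant against TUBO cells (6 called) and 4 to 5 in exosomes against supernatant (4 called). In TUBO cells against MM3MG-Her2 (0 called) it was 1 with no filter and 0 to 3 without single libraries. In exosomes against TUBO cells the arm gained was let-7d-3p under upper-quartile scaling, the replicate block or at most 2 differences after base 18, and let-7f-2-3p under RLE scaling or DESeq2. In TUBO cells against MM3MG the count stayed at 2 with the annotated start only, where let-7d-3p was called and let-7b-3p was not. In MM3MG-Her2 against MM3MG let-7f-2-3p was also called without MM3MG-Her2 replicate 3 (log2 -0.73, edgeR adjusted p = 0.0298). These counts include let-7c-1-3p, let-7f-1-3p or let-7g-3p where the alternative kept them past the filter. Of the ratios, limma called 1 in MM3MG-Her2 against MM3MG (2 by edgeR), 0 in TUBO cells against MM3MG-Her2 (1), 2 in exosomes against TUBO cells (6) and 3 in supernatant against TUBO cells (5); with the replicate block limma called 1, 0, 1 and 3. Without single libraries these counts were 1 to 2, 0 to 1, 6 and 3 to 5. Summed levels over all reads in place of miRNA reads were 503 CPM in exosomes, 3093 in supernatant, 882 in TUBO cells, 577 in MM3MG-Her2 and 723 in MM3MG.

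Direction changed only for values whose main test did not pass. let-7a-1-3p/let-7c-2-3p in MM3MG-Her2 against MM3MG (log2 0.20) was -0.19 with no filter, -0.17 with all 15 libraries and -0.52 to 0.11 without single libraries. let-7b-3p in TUBO cells against MM3MG-Her2 (0.01) was -0.01 with upper-quartile scaling or the replicate block, -0.26 with the annotated start only, -0.09 with at most 2 differences after base 18, and -0.21 to 0.62 without single libraries. let-7f-2-3p there (0.15) was -0.12 with the annotated start only and -0.17 to 0.72 without single libraries. In exosomes against supernatant the let-7g ratio (1.24) was -2.63 with limma, with or without the replicate block, and the let-7i ratio (-1.51) was -2.32 to 2.15 without single libraries, the highest without supernatant replicate 2. The causes were not tested. In 5 comparisons correlations of deviations between same-numbered libraries ran from -0.142 to 0.0395. These show no pairing by replicate number, but with 3 libraries per group they cannot exclude one. In exosomes against supernatant they were 0.0526, 0.343 and 0.395. The mean of -0.124 between different numbers is no separate reference, since deviations were taken from the mean of each group. A pairing by number can therefore not be excluded in any comparison, and the main test left it out. The shallow supernatant libraries limit the values of let-7f, let-7g and let-7i, with a floor of 14.2 CPM.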
